A study of Mus musculus with 10 samples.

Results

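Oxidative phosphorylation genes of the nucleus were studied by name: 85 of the 24391 gene names in the count tables begin with Nduf (letters a, b, c, s or v and a number), Uqcr, Cox4 to Cox8 or Atp5, or are Sdha, Sdhb, Sdhc, Sdhd, Cyc1 or Cycs. The rule uses names alone. By role they are 7 core and 28 accessory subunits of complex I, 4 subunits of complex II, 9 of complex III, cytochrome c (1 gene), 11 usual subunits of complex IV (Ndufa4, which was first assigned to complex I, among them) with 8 tissue isoforms and related genes, 15 subunits of ATP synthase, and 2 genes whose products are not subunits (Atp5s and Atp5sl). RNA was sequenced from the bilateral whole hippocampus of 10 male mice of 10 to 14 weeks, of the strain spelled C56BL/6J in the study's methods. In 4 SAH mice a filament perforated the circle of Willis on 1 side, which gives a subarachnoid hemorrhage, and only mice with a marked drop in cerebral blood flow were kept. The 3 Sham mice had the same operation with the artery left intact, and 3 Naive mice had no surgery. Tissue was collected 4 days after surgery, and each library is 1 mouse. Naive mice therefore differ from both other groups in anesthesia and surgery as well, which cannot be told apart.

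The respiratory chain sits in the inner mitochondrial membrane. Complex I takes electrons from NADH and complex II from succinate, complex III passes them to the small carrier cytochrome c, and complex IV hands them to oxygen. The proton gradient that this builds drives ATP synthase, whose rotating ring of c subunits turns the catalytic head. Neurons draw most of their ATP from this chain. Core subunits encoded by mitochondrial DNA join the nuclear subunits in all of the complexes except complex II, but 0 gene names in the tables are of mitochondrial genes, so those subunits were not analysed here.

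Nuclear genes of the chain are known for promoters that bind NRF1 and the ETS factor GABPA. RefSeq promoters (GRCm38.p6, from 250 bases before to 50 bases after a start) were matched to 70 of the 85 genes, 67 by symbol and 3 by synonym. The NRF1 letters (GCGCA, then any base, then GCGC), searched on both strands, were in the promoters of 17 of the 70 genes (24.3%), against 5.19% of all 27025 genes in the promoter table and 10.4% of the 11334 that were matched to genes tested here. The ETS letters CCGGAAG, on either strand, were in 16 of the 70 (22.9%), against 9.93% of all genes and 17.7% of those tested. The YY1 letters AAGATGGC were in 11 of the 70 (15.7%, against 3.19% of all genes and 4.73% of those tested). The SP1 letters GGGCGG were in 29 (41.4%), against 38.2% of all genes and 67.4% of those tested. The TATA box letters TATAAA were in 7 (10.0%), against 15.7% of all genes and 8.91% of those tested. For SP1 and TATA the members' share lay between the shares of these backgrounds. Each motif was searched on its own, so matches of 2 motifs can share bases, and a match is a description of the sequence, not a bound site.

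Promoters with 3, 2, 1 and 0 matches of the NRF1 letters show the range of this architecture. Each is the 200 bases before the start of the gene, 5′ to 3′ on the minus strand of GRCm38.p6, with the NRF1 and ETS letters (or their reverse complement) in capitals. Sdha, the catalytic subunit of complex II, holds the NRF1 letters 3 times. Cox6a1, of complex IV, holds them 2 times and Sdhd, a membrane anchor of complex II, 1 time, both with the ETS letters. Atp5k, of ATP synthase, holds the NRF1 letters 1 time. Ndufb8 is shown because its fold change after SAH was among the largest of the abundant members, and these 200 bases hold neither motif.
Sdha (chr13:74350241-74350440): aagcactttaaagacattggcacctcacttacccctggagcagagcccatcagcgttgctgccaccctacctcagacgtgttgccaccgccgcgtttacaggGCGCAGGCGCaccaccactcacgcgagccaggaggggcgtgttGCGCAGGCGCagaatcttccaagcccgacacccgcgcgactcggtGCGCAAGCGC
Sdhd (chr9:50603850-50604049): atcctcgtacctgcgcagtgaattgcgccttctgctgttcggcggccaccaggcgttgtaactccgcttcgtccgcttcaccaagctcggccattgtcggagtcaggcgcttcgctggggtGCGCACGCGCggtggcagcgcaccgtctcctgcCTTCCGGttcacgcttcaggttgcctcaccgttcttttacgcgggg
Cox6a1 (chr5:115348959-115349158): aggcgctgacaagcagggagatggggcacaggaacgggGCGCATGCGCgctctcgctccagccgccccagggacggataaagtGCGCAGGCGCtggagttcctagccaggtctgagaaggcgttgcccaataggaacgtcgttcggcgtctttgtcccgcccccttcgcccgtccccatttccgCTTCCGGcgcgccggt
Atp5k (chr5:108434400-108434599): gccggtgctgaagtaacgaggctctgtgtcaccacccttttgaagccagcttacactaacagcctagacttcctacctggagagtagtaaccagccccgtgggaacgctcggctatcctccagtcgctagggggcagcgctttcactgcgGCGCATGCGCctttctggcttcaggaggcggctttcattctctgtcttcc
Ndufb8 (chr19:44555443-44555642): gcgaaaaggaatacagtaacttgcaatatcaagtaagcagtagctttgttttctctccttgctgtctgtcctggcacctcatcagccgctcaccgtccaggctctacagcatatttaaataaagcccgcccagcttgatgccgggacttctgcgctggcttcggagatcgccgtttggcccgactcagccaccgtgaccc

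Total counts were between 19743388 and 27254655 per mouse, and the 85 genes took 0.975% to 1.07% of them. At least 1 count was found for 84 of the 85 genes; Cox8c, a testis isoform, had 0 in every mouse, where a count of 0 allows up to 3 counts per mouse. Neuron markers were abundant in every mouse (8 of 8 detected, summed to 7975 to 8474 CPM in SAH, 7993 to 8271 in Sham and 7927 to 8456 in Naive), as the tissue label implies. Choroid plexus markers differed between mice: all 6 were detected, and their sum was over 800 CPM in SAH mice 3 and 4 and Sham mouse 7 and 44.0 to 213 in the other 7. Striated muscle markers were near 0 (5.19 to 7.94 CPM summed over 4 genes, Ckm at 0 in every mouse).

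Levels were compared between genes as CPM (counts per 1e6 counts of the library, with the library scaled by TMM) per kilobase of exon. Of the 85 genes, 68 had a mean of at least 50 CPM per kilobase over the 10 mice, a level that 9.43% of all 14993 tested genes reach. The highest was Atp5b, the catalytic β subunit of ATP synthase, at 618 ± 13.9 CPM per kilobase (SD, n = 10), which alone took 11.3% of the summed CPM of the 85 genes. The next was Cox8a, a small subunit of complex IV (601 ± 21.1 CPM per kilobase), and the ranges of these 2 genes over the mice overlapped. After them came Cox6a1 (468 ± 17.2), then Cox4i1 (404 ± 19.5), the largest nuclear-encoded subunit of complex IV. The highest members of the other complexes were Uqcrh, the hinge protein of complex III (266 ± 12.3 CPM per kilobase), Ndufa3 of complex I (215 ± 6.73) and Sdha of complex II (160.3 ± 5.40). Cycs, the cytochrome c gene, was at 17.5 ± 1.14 CPM per kilobase, with 35.2% of its 50-base exon windows repeated elsewhere in the genome. In the whole order, the ranges over mice of 2 neighbouring genes were apart in 8 of 84 pairs, so most neighbours in the order were within their spread.

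**Figure D1:**
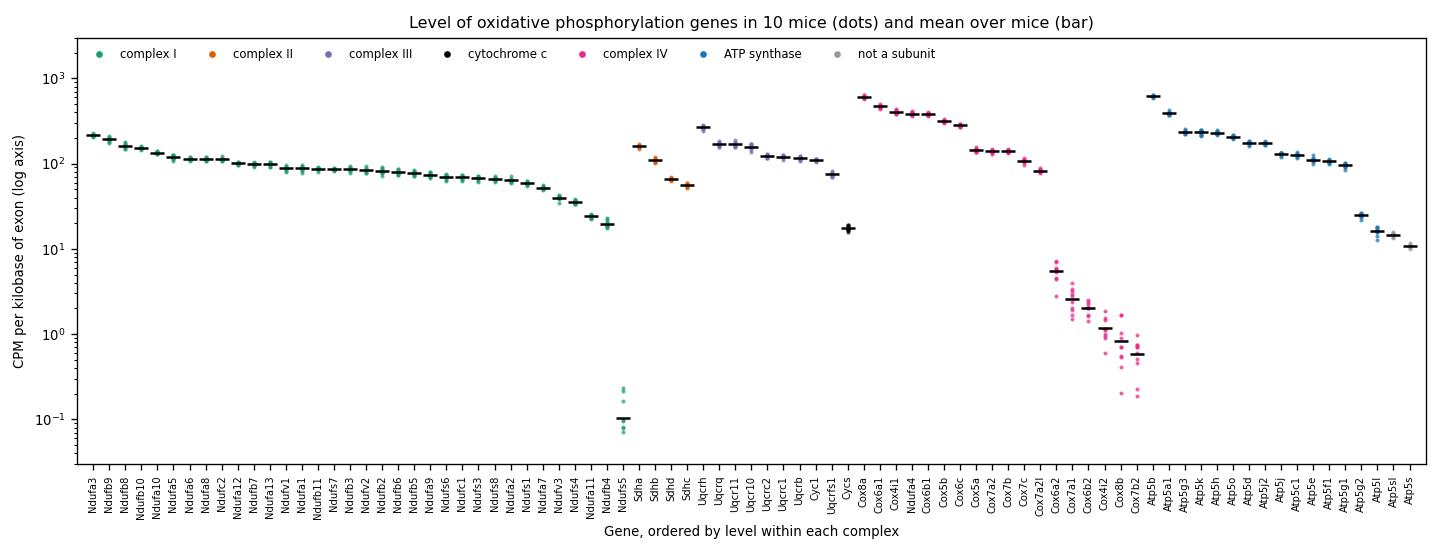
Level of 83 of the 85 genes in CPM per kilobase of exon (log axis), with 1 dot for each of 10 mice and a bar at the mean; genes are ordered by level within each complex, Cox8c (0 in every mouse) is not among them and values of 0 of Ndufs5 cannot be drawn. Most of the usual subunits lie over 50 CPM per kilobase, while the tissue isoforms of complex IV, Cox7a2l aside, have means at or under 5.43.

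The complexes differed in level per length. The median over genes was 314 CPM per kilobase for the 11 usual complex IV subunits, 173 for the 15 ATP synthase genes, 123 for complex III, 87.6 for complex II and 85.7 for complex I. By summed CPM, ATP synthase took 34.8% of the total, complex I 26.3%, complex IV 20.3%, complex III 10.6% and complex II 7.05%. The core subunits of complex I, which carry its flavin and iron-sulfur centres, had their lowest level in Ndufs1, at 58.6 ± 2.55 CPM per kilobase. The level per length divides by all exon bases in the annotation, untranslated parts among them, which are 3059 bases for Cycs. Which of these bases are used in this tissue was not tested.

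The hippocampus used the ubiquitous isoforms of complex IV. Cox4i1 was 344 times as high per kilobase as Cox4i2, its paralog known from lung and from vascular cells, which had 9 to 32 counts per mouse. Cox6a1 was 86.0 times as high as Cox6a2, the heart and skeletal muscle form (37 to 112 counts). Cox6b1 was 191 times as high as Cox6b2, known from testis, and Cox7a2 was 54.4 times as high as Cox7a1, known from heart and muscle. Cox7b2 had 2 to 14 counts and Cox8b 2 to 15, against 2774 to 3733 for Cox7b and 6102 to 9362 for Cox8a. Cox7a2l, a related protein that joins respiratory complexes into supercomplexes, was at 82.7 ± 3.33 CPM per kilobase.

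The 3 genes of the c subunit encode the same mature protein from different precursors. Atp5g3 was highest at 235 ± 9.95 CPM per kilobase, Atp5g1 was at 95.5 ± 5.38 and Atp5g2 at 24.9 ± 1.42. Their order is uncertain, because the authors counted only reads with 1 place in the genome: 80.6% of the 50-base windows of Atp5g1 and 100.0% of those of Atp5g2 also occur elsewhere in NCBIM37 (mm9), against 0 of those of Atp5g3. The same holds for Atp5l (86.6%), Cox7c (83.8%), Ndufb4 (83.1%), Ndufs5 (78.2%), Atp5h (66.4%), Uqcrb (61.9%), Cox5b (61.7%), Cox7a2l (57.4%) and Ndufs3 (53.3%), while 46 of the 85 genes had under 1% of such windows. Windows that span an exon junction were not searched, and a read pair can be placed by its mate, so this share is no estimate of reads lost. Ndufs5, an accessory subunit of complex I, had 0 to 3 counts per mouse, and 95.1% of its exon bases are shared on the same strand with BC002163, which had 19 to 47 counts; reads on both were not counted, so no level can be given for it.

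After SAH, no oxidative phosphorylation gene passed the test against control, the 6 Sham and Naive mice together, and nearly all of them lay within a narrow interval around no difference. Of the 81 members with enough counts to test, 0 passed an adjusted p under 0.10 in either direction (edgeR's quasi-likelihood test, Benjamini-Hochberg over 14993 genes), where 4.68% of all genes tested did (470 genes or 3.13% higher, 231 or 1.54% lower). At an unadjusted p under 0.05 there were 8 members (9.88%), 5 higher and 3 lower, against 17.0% of all genes (9.13% higher, 7.87% lower). DESeq2 called 1 member (Cox4i1, higher), against 6.42% of all genes. The median log2 fold change was 0.031 over the members and −0.0024 over all genes, and 57 of the 81 (70.4%) lay above 0, against 49.1% of all genes. Without 1 mouse the members' median ran from 0.017 (SAH mouse 1) to 0.047 (Sham mouse 7). In bulk tissue, fewer cells of a type and less RNA per cell cannot be told apart.

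The intervals were narrow. For 76 of the 81 members the 95% interval of the fold change lay within 1.2-fold either way, and for 41 within 1.1-fold. Over all genes tested the share within 1.2-fold was 51.7%. The 5 members with wider intervals were Atp5l, a membrane subunit of ATP synthase with many repeated windows (−0.15 to 0.28 on the log2 scale), and Cox6a2, Cox7a1, Cox4i2 and Cox6b2, the tissue isoforms with few counts. Over the 77 members other than these isoforms the log2 fold change ran from −0.11 (Atp5g1) to 0.13 (Ndufb6). The spread between mice was small as well: the median SD of log2 CPM over the 10 mice was 0.068 for the members and 0.080 for genes next to them in abundance, and 62 of 81 members had a smaller SD than the median of such neighbours.

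**Figure D2:**
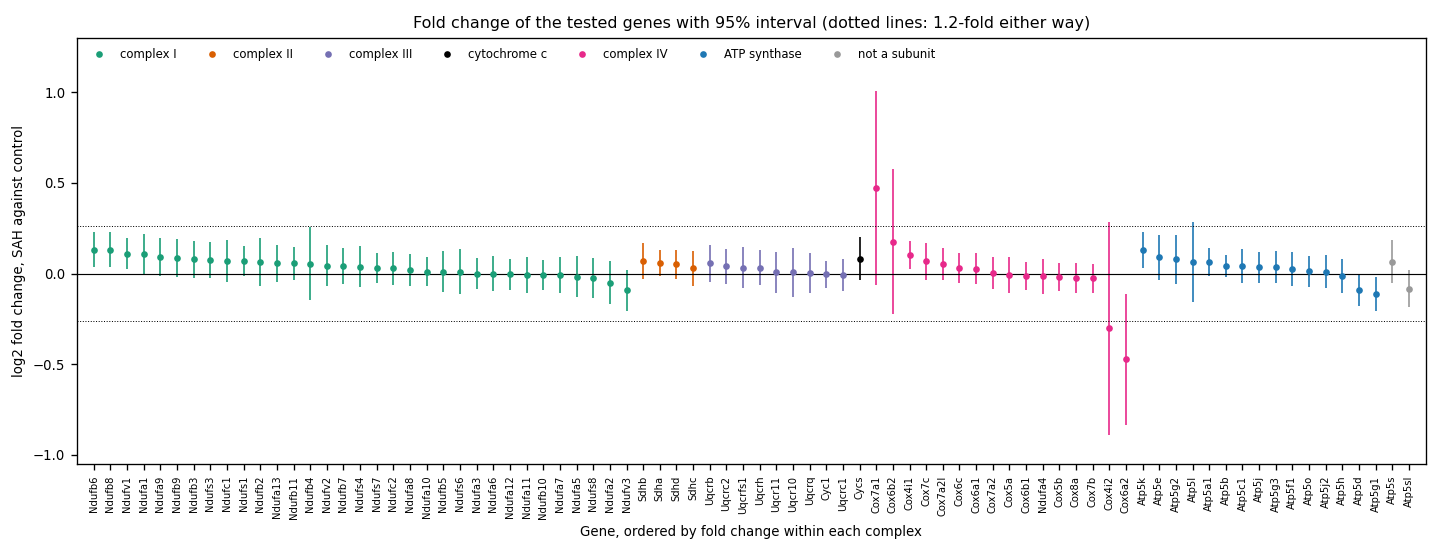
Log2 fold change, SAH (n = 4) against control (n = 6), of 80 of the 81 tested genes, ordered within each complex; bars are 95% intervals of edgeR's quasi-likelihood fit and dotted lines mark 1.2-fold either way. Apart from Atp5l, Cox7a1, Cox6b2, Cox4i2 and Cox6a2, every interval drawn lies between the dotted lines.

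Summed over all 85 genes, the level was 10626, 10256, 10708 and 10090.1 CPM in SAH mice 1 to 4, 10358, 10227 and 10505 in Sham mice 5 to 7, and 9819.7, 9896 and 10378 in Naive mice 8 to 10. SAH mice 1 and 3 were highest and Naive mice 8 and 9 lowest, and the 3 groups overlapped. The mean was 10419.9 ± 295 CPM in SAH (SD, n = 4) and 10197 ± 278 CPM in control (SD, n = 6). Complex I summed to 2661 to 2839 CPM in SAH, 2685 to 2763 in Sham and 2558 to 2752 in Naive. Complex II summed to 728 to 772, 717 to 736 and 679 to 720.2 CPM in the same order, complex III to 1049 to 1144, 1086 to 1128 and 1033 to 1113, and the usual complex IV subunits to 1941 to 2039, 1985 to 2049 and 1909 to 1991. ATP synthase summed to 3482 to 3726 CPM in SAH, 3529 to 3620.1 in Sham and 3418 to 3600.2 in Naive. In each of these complexes the highest Naive mouse lay above the lowest SAH mouse, except in complex II, where all SAH mice lay above all Naive mice.

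The most abundant genes of the complexes did not pass the test either. Atp5b (chr10:127520363-127527444 of mm9) had 1199, 1170.4, 1204 and 1154 CPM in SAH mice 1 to 4, 1159.9, 1142 and 1158 in Sham mice 5 to 7, and 1118, 1142 and 1168 in Naive mice 8 to 10. SAH mice 1, 2 and 3 were above the control mice and SAH mouse 4 among them, and the log2 fold change in SAH against control was 0.042 (95% interval −0.017 to 0.10, edgeR adjusted p = 0.462). Cox8a (chr19:7289648-7292106) had 318, 322, 328 and 329 CPM in SAH mice 1 to 4, 328, 344 and 349 in Sham mice 5 to 7, and 316, 314 and 328 in Naive mice 8 to 10. Sham mice 6 and 7 were highest and the SAH range lay within that of the control mice, and the log2 fold change was −0.025 (−0.11 to 0.057, edgeR adjusted p = 0.768). Uqcrh (chr4:115739570-115747675) had 152, 142, 144 and 149 CPM in SAH mice 1 to 4, 153, 139 and 152 in Sham mice 5 to 7, and 133, 139 and 146 in Naive mice 8 to 10. Sham mouse 5 was highest and Naive mouse 8 lowest, and the log2 fold change was 0.031 (−0.065 to 0.13, edgeR adjusted p = 0.753). Ndufa3 (chr7:3568975-3571763) had 74.1, 72.6, 77.4 and 76.1 CPM in SAH mice 1 to 4, 75.8, 75.7 and 78.6 in Sham mice 5 to 7, and 73.1, 70.9 and 76.3 in Naive mice 8 to 10. The groups overlapped, and the log2 fold change was −0.00070 (−0.086 to 0.085, edgeR adjusted p = 0.995).

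Complex II, the one complex made of nuclear subunits alone, had a positive log2 fold change in SAH against control for each of its 4 genes. None of them passed the test. Against Sham mice 3 of the 4 were positive, with a median of 0.027 and a lowest value of −0.0057. Sdha, which binds the flavin and succinate (chr13:74459703-74487688), had 462, 462, 485 and 468 CPM in SAH mice 1 to 4, 463, 450.5 and 462 in Sham mice 5 to 7, and 425, 451 and 453 in Naive mice 8 to 10. SAH mouse 3 was highest and Naive mouse 8 lowest, and the log2 fold change in SAH against control was 0.058 (−0.015 to 0.13, edgeR adjusted p = 0.412). Sdhb, the iron-sulfur subunit (chr4:140517186-140535107), had 126, 118, 127 and 112 CPM in SAH mice 1 to 4, 118, 121 and 118 in Sham mice 5 to 7, and 111, 108 and 115 in Naive mice 8 to 10. SAH mice 1 and 3 were highest, and SAH mouse 4 lay among the Naive mice. Its log2 fold change was 0.067 (−0.031 to 0.17, edgeR adjusted p = 0.477) against control and 0.11 (0.0033 to 0.22, edgeR adjusted p = 0.319) against Naive mice. The membrane anchors Sdhc and Sdhd had log2 fold changes of 0.028 (−0.071 to 0.13) and 0.051 (−0.030 to 0.13) in SAH against control.

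By role, the median log2 fold change was 0.043 for the 7 core and 0.029 for the 27 tested accessory subunits of complex I, 0.054 for complex II, 0.0063 for complex III and −0.0088 for the usual complex IV subunits. It was 0.042 for the F1 head of ATP synthase, 0.035 for the c subunit genes and 0.024 for the stalk and membrane part. Above 0 lay 6 of the 7 core and 18 of the 27 accessory subunits of complex I, 7 of 9 complex III genes and 5 of the 11 usual complex IV subunits. Cycs had a log2 fold change of 0.082 (95% interval −0.038 to 0.20). The 2 names that are not subunits, Atp5s and Atp5sl, were at 0.065 and −0.084. No role had a member past the threshold.

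The 8 members with the smallest p are described in full. Ndufb6, an accessory subunit in the membrane arm of complex I (chr4:40217696-40226401 of mm9), had 46.4, 43.6, 46.7 and 44.2 CPM in SAH mice 1 to 4, 43.1, 41.9 and 41.4 in Sham mice 5 to 7, and 39.7, 39.6 and 41.9 in Naive mice 8 to 10. Each SAH mouse was above each control mouse, by little: SAH mouse 2 was next to Sham mouse 5. Its log2 fold change was 0.13 (95% interval 0.038 to 0.23, edgeR adjusted p = 0.139), for 45.2 ± 1.57 CPM (SD, n = 4) against 41.3 ± 1.35 CPM (SD, n = 6). Ndufb8, of the same membrane arm (chr19:44624744-44629905), had 112, 107, 115 and 105 CPM in SAH mice 1 to 4, 106, 99.7 and 104 in Sham mice 5 to 7, and 94.5, 94.0 and 102 in Naive mice 8 to 10. SAH mouse 4 lay below Sham mouse 5, so the groups overlapped. The log2 fold change was 0.13 (0.034 to 0.23, edgeR adjusted p = 0.156). Ndufv1, the core subunit that binds NADH and the flavin (chr19:4007499-4012755), had 147, 145, 155 and 145 CPM in SAH mice 1 to 4, 139.9, 142 and 141 in Sham mice 5 to 7, and 129, 131 and 140.3 in Naive mice 8 to 10. All 4 SAH mice were above all control mice, and the lowest levels were those of Naive mice 8 and 9. It was higher in SAH by a log2 fold change of 0.11 (0.023 to 0.19, edgeR adjusted p = 0.181). Ndufb6 and Ndufv1 were the 2 members (2.47%) whose SAH mice all lay above control, and 0 lay below; over all genes tested 2.83% lay above and 2.37% below.

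Cox4i1 (chr8:123192125-123198109) had 325, 302, 334 and 327 CPM in SAH mice 1 to 4, 311, 301 and 299.6 in Sham mice 5 to 7, and 294, 293 and 300.4 in Naive mice 8 to 10. SAH mice 1, 3 and 4 were above the control mice and SAH mouse 2 among them. For Cox4i1 the log2 fold change was 0.10 (0.024 to 0.18, edgeR adjusted p = 0.169), and DESeq2 gave an adjusted p of 0.0922. Leaving out SAH mouse 2 gave 0.13 with an edgeR adjusted p of 0.0627, and leaving out the 3 mice rich in choroid plexus markers gave 0.065 with an edgeR adjusted p of 0.656. Every fit without these 3 mice keeps SAH mice 1 and 2 alone in the SAH group, so its power is lower. Atp5k, the e subunit of the membrane part of ATP synthase, which helps the enzyme form dimers (chr5:108862272-108863397), had 73.2, 69.6, 69.9 and 72.5 CPM in SAH mice 1 to 4, 71.6, 67.2 and 63.1 in Sham mice 5 to 7, and 61.8, 63.7 and 63.5 in Naive mice 8 to 10. Sham mouse 5 lay within the SAH range and the 3 Naive mice were low. Its log2 fold change was 0.13 (0.030 to 0.23, edgeR adjusted p = 0.172), and without Sham mouse 5 it was 0.16 (edgeR adjusted p = 0.0841). With a trend on exon length removed from each library it was 0.095 (edgeR adjusted p = 0.334). Without the 3 mice rich in choroid plexus markers it was 0.12 (edgeR adjusted p = 0.498).

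The other 3 had negative fold changes. Atp5g1, 1 of the c subunit genes (chr11:95934107-95937008), had 84.9, 79.3, 79.1 and 72.9 CPM in SAH mice 1 to 4, 82.3, 84.2 and 87.4 in Sham mice 5 to 7, and 88.8, 84.7 and 85.1 in Naive mice 8 to 10. SAH mouse 1 lay among the control mice and the other SAH mice below them. Atp5g1 had a log2 fold change of −0.11 (−0.21 to −0.017, edgeR adjusted p = 0.215), and −0.15 without SAH mouse 1 (edgeR adjusted p = 0.0949). It was −0.075 (edgeR adjusted p = 0.389) without SAH mouse 4 and −0.049 (edgeR adjusted p = 0.792) without the 3 mice rich in choroid plexus markers. The other c subunit genes were at 0.078 (Atp5g2, 95% interval −0.056 to 0.21) and 0.035 (Atp5g3, −0.055 to 0.13). Atp5d, the δ subunit of the central stalk (chr10:79605060-79608563), had 169, 164, 149 and 152 CPM in SAH mice 1 to 4, 171, 162 and 173 in Sham mice 5 to 7, and 167, 169 and 168 in Naive mice 8 to 10. SAH mice 3 and 4 were lower than every control mouse, and SAH mice 1 and 2 were not. The fold change of Atp5d on the log2 scale was −0.089 (−0.18 to −0.0017, edgeR adjusted p = 0.285). Without SAH mouse 3 it was −0.059 (edgeR adjusted p = 0.594) and without the 3 mice rich in choroid plexus markers −0.0082 (edgeR adjusted p = 0.968).

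Cox6a2 (chr7:135348949-135349880) had the most negative fold change of the 81 members, at low counts. It had 3.77, 3.02, 1.87 and 2.92 CPM in SAH mice 1 to 4, 3.96, 3.49 and 3.58 in Sham mice 5 to 7, and 3.87, 4.58 and 4.75 in Naive mice 8 to 10. SAH mouse 3 was lowest and SAH mouse 1 lay among the control mice, which the other 3 SAH mice were below. Its change on the log2 scale was −0.47 (−0.83 to −0.11, edgeR adjusted p = 0.167), and without SAH mouse 1 it was −0.61 (edgeR adjusted p = 0.0723). With the 3 mice rich in choroid plexus markers left out, a comparison added after the data were seen, it was −0.29 (edgeR adjusted p = 0.599). In brain Cox6a2 is known from parvalbumin interneurons, whose markers are set beside it. Of the 4 parvalbumin and somatostatin interneuron markers 1 was called lower, Sst, which encodes somatostatin (187 ± 20.7 CPM, SD, n = 4, against 225 ± 8.07 CPM, SD, n = 6, log2 fold change −0.27, edgeR adjusted p = 0.0333). Without the 3 mice rich in choroid plexus markers Sst was at −0.14 (edgeR adjusted p = 0.224). Pvalb itself was at 29.5 ± 0.674 CPM against 30.4 ± 1.53 CPM (log2 fold change −0.046, edgeR adjusted p = 0.672). The summed level of the 4 markers, which includes that of Sst, was 392 to 445 CPM in SAH, 449 to 459 in Sham and 459 to 491 in Naive. Their part in the level of Cox6a2 was not tested.

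**Figure D3:**
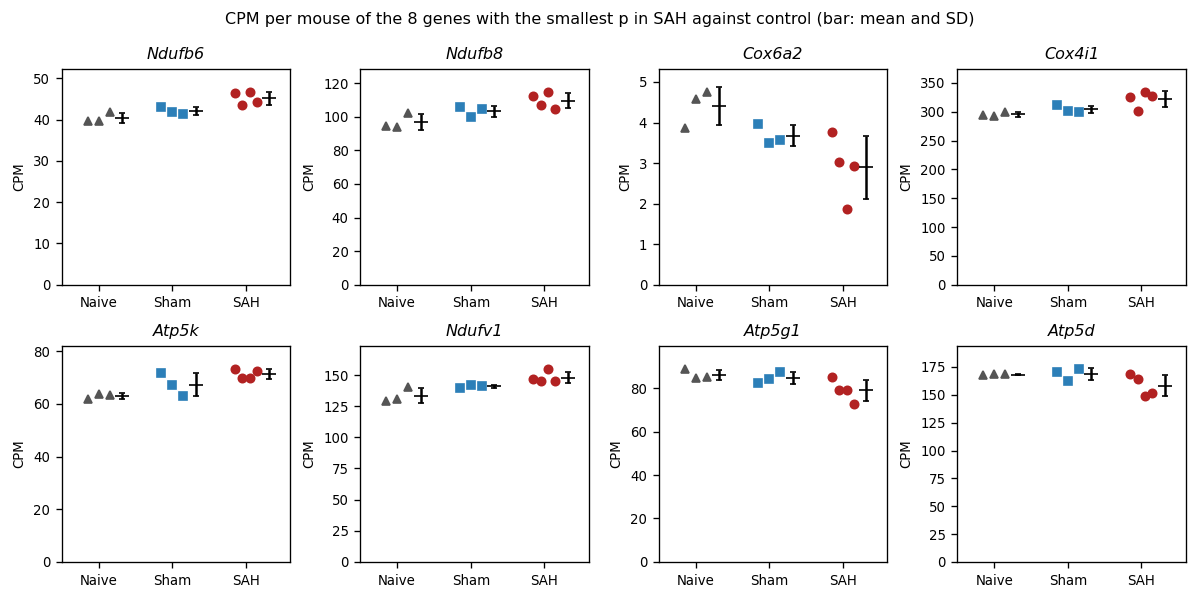
CPM per mouse (y axis from 0) in Naive (triangles, n = 3), Sham (squares, n = 3) and SAH (circles, n = 4) of the 8 members with the smallest p; the black bar is the mean with its SD. The groups overlap or lie close together in each panel, and Cox6a2 has the widest scatter relative to its mean, 1.87 to 3.77 CPM in SAH.

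The comparison of SAH with Sham mice addresses the hemorrhage and that of Sham with Naive mice the surgery. Between SAH and Sham mice, 0 members passed the adjusted threshold (0.72% of 15134 genes did) and 0 had an unadjusted p under 0.05, against 9.69% of all genes; DESeq2 called 0 (1.91% of all genes). The median log2 fold change was 0.0019 over the members, with 41 (50.6%) above 0, against 49.3% of all genes, and 75 of 81 intervals lay within 1.2-fold. Without the 3 mice rich in choroid plexus markers this median was 0.031, and without 1 mouse it ran from −0.0073 (SAH mouse 1) to 0.023 (Sham mouse 7), below 0 also without SAH mouse 3, Sham mouse 5 or Sham mouse 6. Ndufb6 was at 0.10 (95% interval −0.011 to 0.22), Ndufv1 at 0.069 (−0.027 to 0.16) and Cox4i1 at 0.082 (−0.013 to 0.18). The groups did not overlap for Ndufb6 and Ndufv1, both higher in SAH (2.47% of members, against 5.03% of all genes), and 0 were apart in the other direction (4.45% of all genes).

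Between SAH and Naive mice, edgeR's quasi-likelihood test called 0 members, against 2.99% of all genes, and DESeq2 called 3, all higher: Ndufb8, Atp5k and Ndufv1 (3.61% of members, against 4.56% of all genes). At an unadjusted p under 0.05 there were 11 higher and 2 lower members (16.0% against 14.8% of all genes, 7.78% higher and 7.06% lower). The higher ones were Ndufa1, Ndufa9, Ndufa13, Ndufb6, Ndufb8 and Ndufv1 of complex I, Sdhb, the iron-sulfur subunit of complex II, Cox4i1, Cox7a1 and Cox7a2l, and Atp5k. The lower ones were Atp5g1 and Cox6a2. Atp5k was at 0.18 (0.065 to 0.29, edgeR adjusted p = 0.126) and Ndufb8 at 0.18 (0.066 to 0.29, edgeR adjusted p = 0.118). The median was 0.051, and 69 of 81 (85.2%) lay above 0, against 50.0% of all genes. Without 1 mouse this median ran from 0.033 (SAH mouse 3) to 0.084 (Naive mouse 10). All SAH mice were above all Naive mice for 12 members (14.8%, against 7.04% of all genes) and below them for 1, Cox6a2 (1.23%, against 6.75%).

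Between Sham and Naive mice, 0 members were called by edgeR or by DESeq2 (of all genes, edgeR called 0.00661% and DESeq2 0.0102%), and 2 had an unadjusted p under 0.05, both higher in Sham: Uqcr10, a small subunit of complex III, and Cox8a (2.47% against 2.02% of all genes). Uqcr10 had 74.6, 68.5, 67.2 and 68.3 CPM in SAH mice 1 to 4, 74.7, 70.1 and 75.3 in Sham mice 5 to 7, and 63.9, 60.0 and 71.8 in Naive mice 8 to 10. Naive mice 8 and 9 were the lowest, and Naive mouse 10 lay among the others. Its log2 fold change in Sham against Naive was 0.17 (0.018 to 0.32, edgeR adjusted p = 1). The median over the members was 0.054, and 73 of 81 lay above 0, beside −0.0017 and 49.2% over all genes. Without 1 mouse the members' median ran from 0.035 (Naive mouse 8) to 0.078 (Naive mouse 10). With a trend on exon length removed from each library it was 0.0089. Members with Sham and Naive mice apart numbered 8 higher (9.88%, against 4.84% of all genes) and 1 lower, Cox4i2 (1.23%, against 4.15%). The comparisons share mice, so their values are not independent of each other: SAH against Naive and Sham against Naive have the same Naive mice.

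Within each group the mice differed in how far the whole set was shifted. Over the 81 members, the median deviation of log2 CPM from a gene's mean over mice was 0.046, −0.0072, 0.052 and −0.023 in SAH mice 1 to 4, 0.014, −0.0075 and 0.040 in Sham mice 5 to 7, and −0.069, −0.063 and 0.025 in Naive mice 8 to 10. SAH mice 1 and 3 and Sham mouse 7 were high, Naive mice 8 and 9 were low, and the ranges of the 3 groups overlapped. Complexes I, III and IV and ATP synthase each had a negative median in SAH mouse 4 and Naive mice 8 and 9. Each had a positive one in SAH mice 1 and 3, Sham mice 5 and 7 and Naive mouse 10. Cytosolic ribosomal protein genes, which encode another abundant set of small proteins, stood at 0.090 and 0.10 in SAH mice 1 and 3 and at −0.090 and −0.14 in Naive mice 8 and 9. Over all genes tested the median deviation stayed between −0.00096 and 0.0053.

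**Figure D4:**
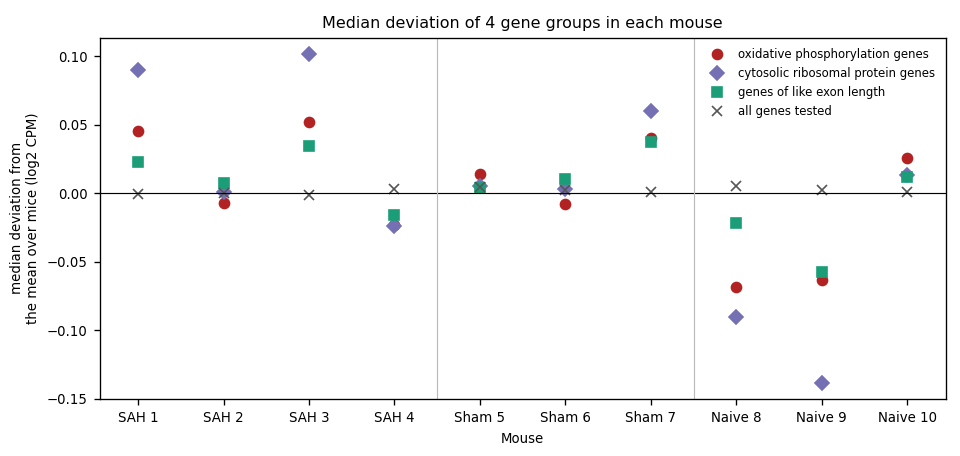
Median deviation of log2 CPM from each gene's mean over the 10 mice, per mouse, for the 81 oxidative phosphorylation genes, 91 cytosolic ribosomal protein genes, 1449 other genes of like exon length and all 14993 genes tested. The oxidative phosphorylation genes are low in Naive mice 8 and 9 and high in SAH mice 1 and 3, where the ribosomal protein genes also lie on that side of 0.

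Exon length moved with these shifts. The members are short (median 727 bases of exon, against 2966 over all genes tested). In Sham against Naive, the median log2 fold change of all genes ran from 0.069 for genes of up to 500 bases, through 0.046 for 500 to 1000 bases, to −0.047 over 8000 bases; in SAH against Naive the ends were 0.069 and −0.037. Between SAH and Sham the shortest genes were at −0.016. The 1449 other genes whose exon length lay in the interquartile range of the members had medians of 0.043 in Sham against Naive and 0.034 in SAH against Naive. With a trend on exon length removed from each library, the members' median went from 0.054 to 0.0089 in Sham against Naive, from 0.051 to 0.019 in SAH against Naive and from 0.031 to 0.018 in SAH against control. In SAH against Sham it went from 0.0019 to 0.0073.

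**Figure D5:**
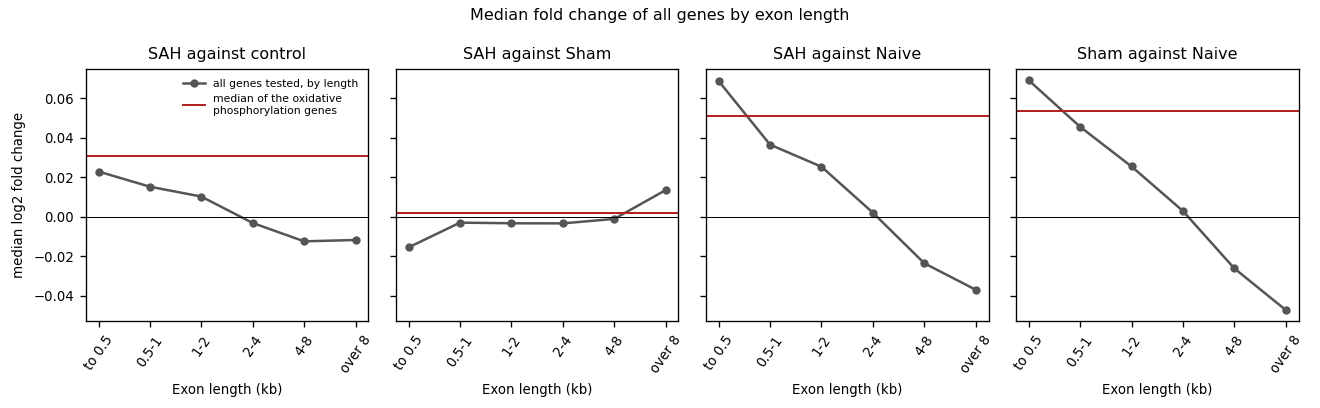
Median log2 fold change of all genes tested in 6 classes of exon length (kilobases), in the 4 comparisons (grey), beside the median of the 81 oxidative phosphorylation genes (red line). Both comparisons with Naive fall from short to long genes, and the red line lies between the values of the shortest classes there.

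Around the chain, 1 of the listed genes passed the test in SAH against control, where 4.68% of all genes tested did. Of 39 assembly factors that build the complexes, 0 were called in any of the 4 comparisons, and their median log2 fold change in SAH against control was −0.0061 (single genes from −0.092 to 0.20). Of 16 genes of pyruvate dehydrogenase and the citric acid cycle, which feed the chain with NADH and succinate, 1 was called. Ogdh, the first component of the 2-oxoglutarate dehydrogenase complex, had 288, 277, 236 and 262 CPM in SAH mice 1 to 4, 295, 292 and 304 in Sham mice 5 to 7, and 313, 332 and 311 in Naive mice 8 to 10. All SAH mice were below all control mice, as for 2.37% of all genes tested. The log2 fold change of Ogdh against control was −0.21 (SE 0.054, edgeR adjusted p = 0.0605), and in SAH against Naive it was −0.26 (edgeR adjusted p = 0.0533). Against Sham it was −0.16 (edgeR adjusted p = 0.405). The call against control was lost without any 1 of SAH mice 3 and 4 and Naive mice 8, 9 and 10 (log2 fold changes of −0.25 to −0.16 and edgeR adjusted p of 0.0303 to 0.16 over the 10 fits without 1 mouse). Without the 3 mice rich in choroid plexus markers Ogdh was at −0.12 (edgeR adjusted p = 0.383).

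Of 13 regulators of mitochondrial biogenesis, 0 were called in any of the comparisons, where 4.68% of all genes were called in SAH against control. Their median log2 fold change in SAH against control was 0.048, with single genes from −0.41 to 0.14. At an unadjusted p under 0.05 there were 0 higher and 2 lower, Tfb1m at −0.41 (edgeR adjusted p = 0.213) and Esrra at −0.12 (edgeR adjusted p = 0.258). Ppargc1a, the coactivator PGC-1α, had 60.0 ± 3.04 CPM in SAH mice and 63.4 ± 2.20 CPM in control mice (SD, n = 4 and n = 6, log2 fold change −0.081, edgeR adjusted p = 0.384). Nrf1 was at 17.9 ± 2.21 CPM against 17.0 ± 0.713 CPM (log2 fold change 0.072, edgeR adjusted p = 0.665), and Gabpa at 33.2 ± 3.79 CPM and 30.7 ± 2.10 CPM (0.11, edgeR adjusted p = 0.473). Tfam, which packages mitochondrial DNA and activates its transcription, was at 34.9 ± 3.15 CPM and 32.8 ± 1.02 CPM (0.090, edgeR adjusted p = 0.452). Of 11 carriers, outer membrane channels and uncouplers, 0 were called, with a median of 0.025 in SAH against control and single genes from −0.050 to 0.73. At an unadjusted p under 0.05 there was 1 higher and 0 lower, against 9.13% and 7.87% of all genes.

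Markers of several cell types were called in SAH against control. All 6 oligodendrocyte markers were called lower in SAH against control (median log2 fold change −0.59), and their sum was 4549.6 to 5832 CPM in SAH, 6701 to 9307 in Sham and 7727 to 8341 in Naive. Of 8 neuron markers 0 were called (median 0.0081). Called higher were 1 of 6 astrocyte markers (Gfap), 1 of 6 microglia markers (Csf1r), 2 of 5 endothelium markers, 3 of 7 markers of pericytes and smooth muscle and 3 of 4 of meningeal fibroblasts, while 0 of 6 choroid plexus markers passed. The part of these cell types in the levels of the oxidative phosphorylation genes was not tested. With the 3 mice rich in choroid plexus markers left out, 0 members were called in any of the 4 comparisons, where 2.18% of all genes were called in SAH against control, 0.813% in SAH against Sham, 2.65% in SAH against Naive and 0.0264% in Sham against Naive. In that fit all 6 oligodendrocyte markers were still called lower in SAH.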

How the data were processed

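The authors aligned pairs of 50-base reads with STAR (defaults, mm9) and counted them with featureCounts 1.6.2 (stranded, exons summed by gene name, UCSC annotation), without reads of several places or several genes. The deposited values are raw counts per gene name and mouse. The submitters' processing notes also list GRCh38; the exon coordinates in the tables are those of mm9.

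Counts were compared with edgeR 4.0.16 in R 4.3.3: TMM, filterByExpr (minimum count 10, minimum total 15), quasi-likelihood test, Benjamini-Hochberg adjustment over all genes tested, threshold 0.10. Sham and Naive mice were pooled as control, and a second fit with 3 groups gave the pairwise comparisons. Standard errors and 95% intervals follow from the F statistic. CPM used TMM factors, and log2 CPM a prior count of 2. Intervals across mice hold the spread between mice, and limits on a count of 0 cover counting error only. The code was tested on simulated data. All 45 pairs of libraries differed by more than sampling noise (chi-square per degree of freedom of at least 3.62).

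The members and gene lists were chosen with earlier results of these data known. The named genes were members past the threshold or, failing that, the 8 with the smallest p in SAH against control, the highest member of each complex, isoform pairs, and listed pathway genes past the threshold with Ppargc1a, Nrf1, Gabpa and Tfam. Sdhb, Sdhc, Sdhd, Cycs, Uqcr10, Ndufs1, Ndufs5, Atp5l, Tfb1m, Esrra, Sst, Pvalb and the genes listed at an unadjusted p were added after their values were seen. For 1 member no values are reported here, and it enters counts and medians only. Alternatives were DESeq2 1.42.0, other scaling, filters and thresholds, removal of a lowess trend on exon length, and each mouse left out. Python 3.11.15, pandas 2.3.3 and matplotlib 3.10.9 were used.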

Additional observations from a re-analysis of the deposited data

Results flagged for a closer look

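In 162 sets of values (80 members and the summed CPM of all members, in SAH and in control), 1 mouse stood apart from the rest of its group in 4 by the gap to its nearest neighbour. Chance alone flags about 1 in 20 such sets. Ndufv3, a complex I accessory subunit, was 54.5 CPM in SAH mouse 4, below the rest of its group at 62.1 to 63.5. Ndufb10 was 92.1 CPM in SAH mouse 2 against 98.0 to 99.2. Uqcrq, a small subunit of complex III, was 90.3 CPM in SAH mouse 1 against 81.9 to 82.7. Among the control mice, Sdha was 425 CPM in Naive mouse 8 against 450.5 to 463.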

How the results depend on the processing

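The count of 0 members called moved in few alternatives. DESeq2 called 1 higher member in SAH against control (Cox4i1, log2 fold change 0.10, adjusted p = 0.0922) and 3 in SAH against Naive. It called 6.42% and 4.56% of all genes there. Scaled by library size alone, edgeR called 2 members in SAH against Naive (Ndufb8 and Ndufv1), against 3.15% of all genes. Without 1 mouse, members called in SAH against control numbered 0 to 1 higher (Cox4i1 without SAH mouse 2, Atp5k without Sham mouse 5) and 0 to 2 lower (Atp5g1 and Cox6a2 without SAH mouse 1), and in SAH against Naive 0 to 1 higher (Cox4i1 without SAH mouse 2, Atp5k without SAH mouse 3) and 0 to 1 lower (Cox6a2 without SAH mouse 1). In those fits 2.05% to 7.25% of all genes were called in SAH against control and 0.714% to 4.53% in SAH against Naive. In SAH against Sham and in Sham against Naive the count stayed 0 in every alternative. Few genes were called there at all: without 1 mouse, 0.0393% to 1.42% of all genes in SAH against Sham and 0% to 0.00664% in Sham against Naive. The median log2 fold change of the members lay between 0.017 and 0.047 in SAH against control, between −0.0073 and 0.023 in SAH against Sham, between 0.033 and 0.084 in SAH against Naive and between 0.035 and 0.078 in Sham against Naive without 1 mouse. With the exon length trend removed it was 0.0089 in Sham against Naive. In SAH against control, the sign of the log2 fold change of the 8 genes with the smallest p was the same in every alternative. These genes were chosen by their p in this comparison and the alternatives share its mice, so the sign is no separate support. With the mice rich in choroid plexus markers left out, the median was 0.049 in SAH against control and 0.031 in SAH against Sham, both over 1.5 times the value with all mice. In the same fit Cox6a2 was at −0.29, Atp5g1 at −0.049, Cox4i1 at 0.065 and Atp5d at −0.0082, each over 1.5 times smaller; the cause was not tested. No paired analysis was possible because the groups share no replicate numbers. Depth limits the tissue isoforms of complex IV, with under 120 counts per mouse.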
